A study of Homo sapiens with 24 samples.

Results

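The genes described here carry the Wnt signal from outside the cell to the plasma membrane: the Wnt ligands, the enzyme PORCN that acylates them, the Frizzled receptors, the co-receptors LRP5 and LRP6, the alternative receptors ROR1, ROR2 and RYK, the Dishevelled proteins DVL1, DVL2 and DVL3, and the secreted Frizzled-related proteins. Members were all non-control probes whose gene name in the array files starts with WNT, FZD or SFRP followed by a digit, or is one of the other names just given. This gave 50 probes, printed in 86 spots, for 42 genes, out of 34127 probes and 27274 gene names on the array. They were 23 probes for 19 WNT genes, 1 for PORCN, 10 for 10 FZD genes, 2 for LRP5 and LRP6, 6 for ROR1, ROR2 and RYK, 4 for DVL1, DVL2 and DVL3, and 4 for SFRP1, SFRP2, SFRP4 and SFRP5.

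RNA came from HCT-116 cells, an established human colon carcinoma line, in 1 clone stably carrying the Tet repressor and, under its control, DN-Tcf4, a Tcf4 that cannot bind beta-catenin and occupies Tcf sites in its place. Cells were left untreated (Ctl), given 5 mM sodium butyrate (NaB), given 4 μg/ml doxycycline to induce DN-Tcf4 (Doxy), or given both agents (DoxyNaB), and the butyrate treatment lasted 17.5 hr. How long doxycycline was given before butyrate is not stated in the sources used here. All 4 groups carry both constructs, none is the parental line, and each was made in 6 experiments, with 1 array per treatment and experiment (24 arrays). The comparisons NaB/Ctl and DoxyNaB/Doxy ask what butyrate changes without and with doxycycline. Doxy/Ctl and DoxyNaB/NaB ask what doxycycline changes, and the interaction asks whether the butyrate changes differ. By western blot, the study found minimal DN-Tcf4 with doxycycline alone and high levels with both agents. DoxyNaB/Doxy thus also spans the rise in DN-Tcf4, and Doxy/Ctl says little of what DN-Tcf4 does at high levels.

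Wnt ligands are lipid-modified proteins that bind a Frizzled receptor together with LRP5 or LRP6, which recruits Dishevelled and stabilises beta-catenin, the partner of Tcf factors at target genes. ROR1, ROR2 and RYK bind Wnt ligands too and signal largely without beta-catenin, and secreted Frizzled-related proteins bind ligands outside the cell. In colon epithelium the pathway maintains the stem cells of the crypt, and in colorectal cancer it is usually switched on inside the cell, by mutation of APC or beta-catenin, below the level at which these members act.

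The level of a probe is its processed signal relative to the 75th percentile of its array, on the log2 scale, so that 0 is that percentile and a difference of 1 is 2-fold. Levels compare a probe between arrays, not one gene with another. The 75th percentile lay between 380.2 and 1323 signal units. By the scanner software's own test, the share of spots above background, controls left out, was at least 78.3% in experiments 2 to 4 and at most 62.4% in experiments 1, 5 and 6. The mean negative control signal was above 100 on 5 arrays, all with butyrate: NaB of experiments 2, 3 and 4 (115, 161 and 112) and DoxyNaB of experiments 2 and 4 (249 and 111). The other 19 arrays had 48.4 to 79.6. In experiment 1 the butyrate arrays were on another slide and scan than the arrays without butyrate, so slide and butyrate cannot be told apart there. Of 8 colon epithelial markers, EPCAM, CDH1, KRT8, KRT18 and KRT19 were well above background on all 24 arrays, while VIL1, CDH17 and GPA33 were so on 5, 2 and 4. Of the fibroblast, leukocyte and endothelial markers, 1 of 6 (COL1A1), 1 of 5 (CD79A) and 0 of 4 were well above background on all arrays, and COL3A1 was on 0. The summed level of the endothelial list, on the log2 scale, was -3.36 to -2.08 in Ctl and -2.40 to -0.39 in NaB cells, that of the leukocyte list -1.40 to -0.55 and -0.62 to 0.58, and that of the fibroblast list -1.52 to -0.93 and -2.14 to 0.13. The summed epithelial level was 7.71 to 8.22 in Ctl and 8.10 to 8.97 in NaB cells, and of its 5 tested markers CDH1, KRT8 and KRT19 rose in NaB/Ctl, EPCAM fell and KRT18 did not pass. The markers COL1A1, CD14, CD79A and VWF of the other lists rose in NaB/Ctl by 1.09, 1.35, 0.92 and 2.77. The part of these markers in the results was not tested.

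Each probe is a run of 60 bases, and members of one family can resemble each other, so probes of different member genes were compared without gaps. Over 1215 pairs of probes, the longest shared run was 10 bases and the closest pair had 32 of 60 bases in common. A few of the probes on which the results below turn are shown as the files give them, for ligands and receptors that moved in opposite directions. The WNT7A probe lies at chr3:13835852-13835911 on the minus strand of NCBI36, the WNT9A probe at chr1:226176156-226176215 on the minus strand, the FZD2 probe at chr17:39992136-39992195 on the plus strand and the LRP5 probe at chr11:67972935-67972994 on the plus strand. No base is in capitals because no part of a probe is singled out.
WNT7A: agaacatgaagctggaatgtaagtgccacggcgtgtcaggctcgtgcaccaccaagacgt
WNT9A: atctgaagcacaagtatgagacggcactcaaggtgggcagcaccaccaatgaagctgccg
FZD2: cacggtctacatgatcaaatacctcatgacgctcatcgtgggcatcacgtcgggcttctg
LRP5: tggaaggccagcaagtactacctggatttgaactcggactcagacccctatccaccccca

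Which members could be measured differed by class. On all 24 arrays, 20 probes for 19 genes were well above background: the ligands WNT2B, WNT3, WNT6, WNT7B and WNT10B, PORCN, the receptors FZD1, FZD2, FZD4, FZD5, FZD6 and FZD7, both co-receptors, ROR2, RYK and the 3 Dishevelled genes. Another 13 probes met that standard on every array of 1 or more treatments and were tested too, which added WNT3A, WNT5B, WNT7A, WNT9A, WNT10A, WNT11, WNT16, FZD9 and ROR1. In all, 33 probes for 28 genes were tested, among 18980 probes of the array. The other 17 probes were not tested. They were the only probes of WNT1, WNT2, WNT4, WNT5A, WNT8A, WNT8B, WNT9B, FZD3, FZD8, FZD10 and the 4 SFRP genes, and further probes of WNT7B.

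**Figure D1:**
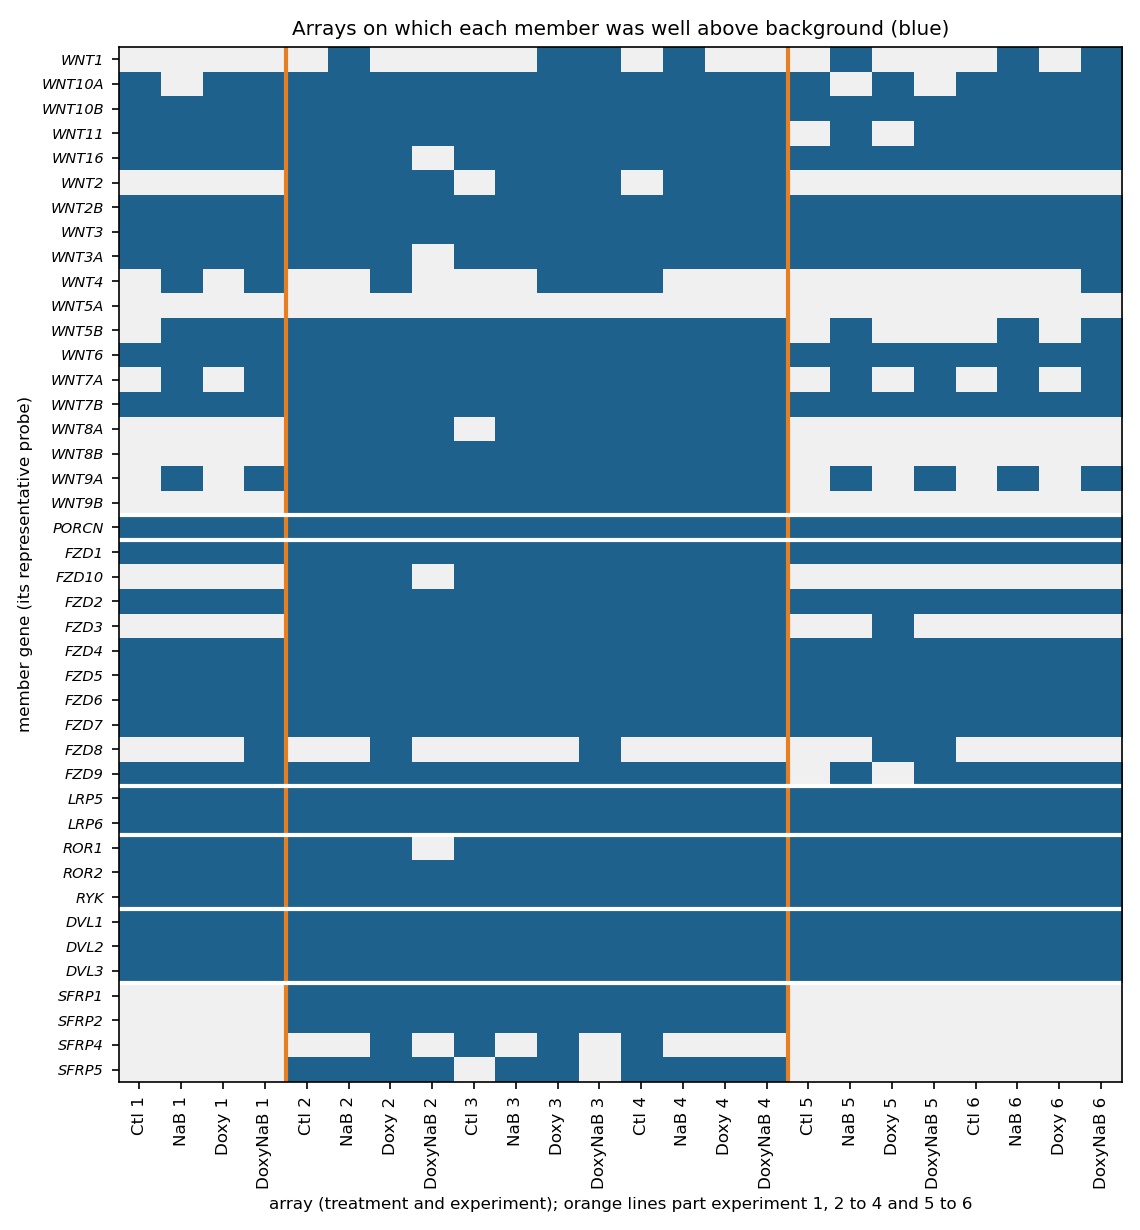
Arrays (columns, by treatment and experiment) on which the representative probe of each of the 42 genes (rows) was well above background, in blue. The 19 genes measured on all 24 arrays are solid rows, WNT5A is blank throughout, and SFRP1 and SFRP2 are blue on the 12 arrays of experiments 2 to 4 only.

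For the untested members the detection followed the experiment. SFRP1, which binds Wnt ligands and is commonly methylated and silent in colorectal cancer, was well above background on 12 of 12 arrays of experiments 2 to 4 and on 0 of 12 of the others. SFRP2, WNT8B and WNT9B had the same split, FZD3 had 12 and 1, WNT8A and FZD10 had 11 and 0, and WNT2 and SFRP5 had 10 and 0. WNT5A, a ligand best known for signalling without beta-catenin, was on 0 of 24 arrays. WNT4 (4 and 3), SFRP4 (4 and 0) and FZD8 (2 and 3) were rarely detected. WNT1, the founding Wnt ligand, was on 0 of 6 Ctl arrays for both of its probes and on 3 and 4 of 6 NaB arrays. The 3 arrays of the first probe were the NaB arrays of high negative controls, and in experiments 1, 5 and 6 its mean level was -6.99 in NaB and -7.07 in Ctl cells. The second probe was above background on the NaB arrays of experiments 2, 4, 5 and 6. Its mean level in experiments 1, 5 and 6 was -4.77 in NaB and -6.43 in Ctl cells. The probes of WNT1 thus differ, neither was tested, and no fold is given. The same split held beyond these members. Of all the untested probes of the array, 49.4% to 72.5% were well above background on an array of experiments 2 to 4, and 0.918% to 13.5% on the others.

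The signal of these dim members moved with the background of the array. Their median level was between -5.86 and -1.71 on the arrays of experiments 2 to 4 and between -7.37 and -6.09 elsewhere. Its highest value, -1.71, was on the DoxyNaB array of experiment 2, which had the highest negative control signal. For the SFRP genes the median levels in Ctl and NaB cells were -5.09 and -3.94 for SFRP1, -5.95 and -4.56 for SFRP2, -6.07 and -5.54 for SFRP4, and -6.29 and -4.51 for SFRP5. SFRP1 alone ranged from -6.77 to -1.24 within the NaB group, wider than the distance between these medians. No change of an SFRP gene is given for that reason.

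**Figure D2:**
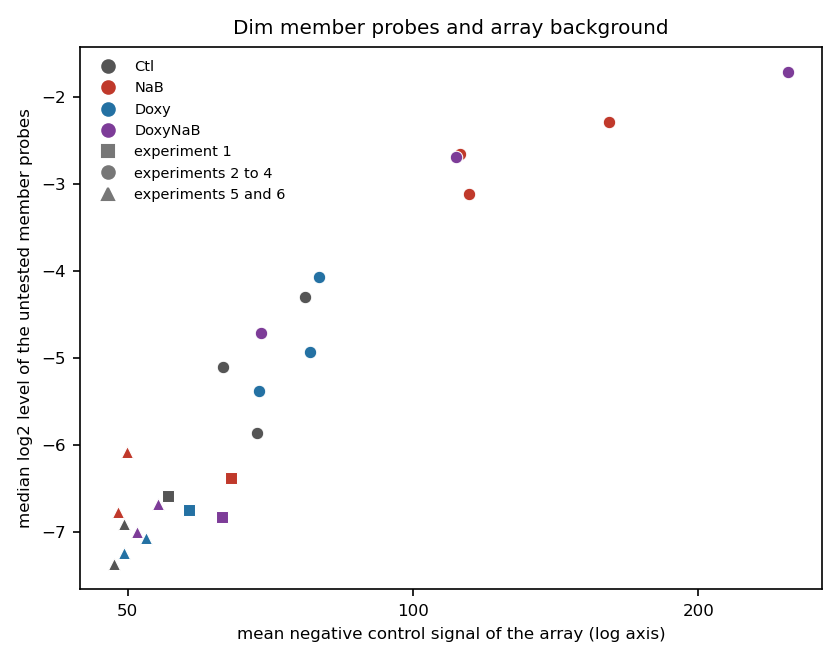
Median log2 level of the 17 untested member probes against the mean negative control signal of the array (log axis), one point per array, coloured by treatment and shaped by experiment. The 5 butyrate arrays with a negative control signal above 100 hold the 5 highest medians, from -3.12 to -1.71.

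Butyrate changed most of the measurable members, in both directions. In NaB/Ctl, 17 of the 20 probes well above background on all arrays changed (7 higher, 10 lower), where a change means a Benjamini-Hochberg adjusted p under 0.01 from limma, a linear model fitted to all 24 arrays with the experiment as a block. Of all 15088 such probes of the array, 69.7% changed, 37.7% higher and 32.0% lower, and no feature of these members is read from the count. Past 2-fold were 7 of the 20 (5 higher, 2 lower), against 26.5% of all. The NaB and Ctl arrays did not overlap for 12 of the 20, against 45.3% of all. The median change of the 20 was -0.22 and their median size 0.90, against 0.07 and 0.59 over all such probes. Counting all 33 tested probes, some of which were admitted by the group in which they were high, 27 changed (15 higher, 12 lower), against 68.2% of 18980 (40.0% higher and 28.2% lower), and 14 passed 2-fold, against 31.7%. RNA came from whole cultures, so fewer cells with a transcript and less of it per cell cannot be told apart.

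With doxycycline present the same question gave counts of the same order. In DoxyNaB/Doxy, 17 of the 20 probes changed (6 higher, 11 lower), against 69.1% of all (35.9% higher and 33.2% lower), and 6 passed 2-fold (3 higher, 3 lower), against 26.2%. The groups did not overlap for 12 of the 20, against 44.2% of all. Of all 33 tested probes, 27 changed (14 higher, 13 lower), against 67.0% (37.3% higher and 29.7% lower), and 14 passed 2-fold, against 30.6%.

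**Figure D3:**
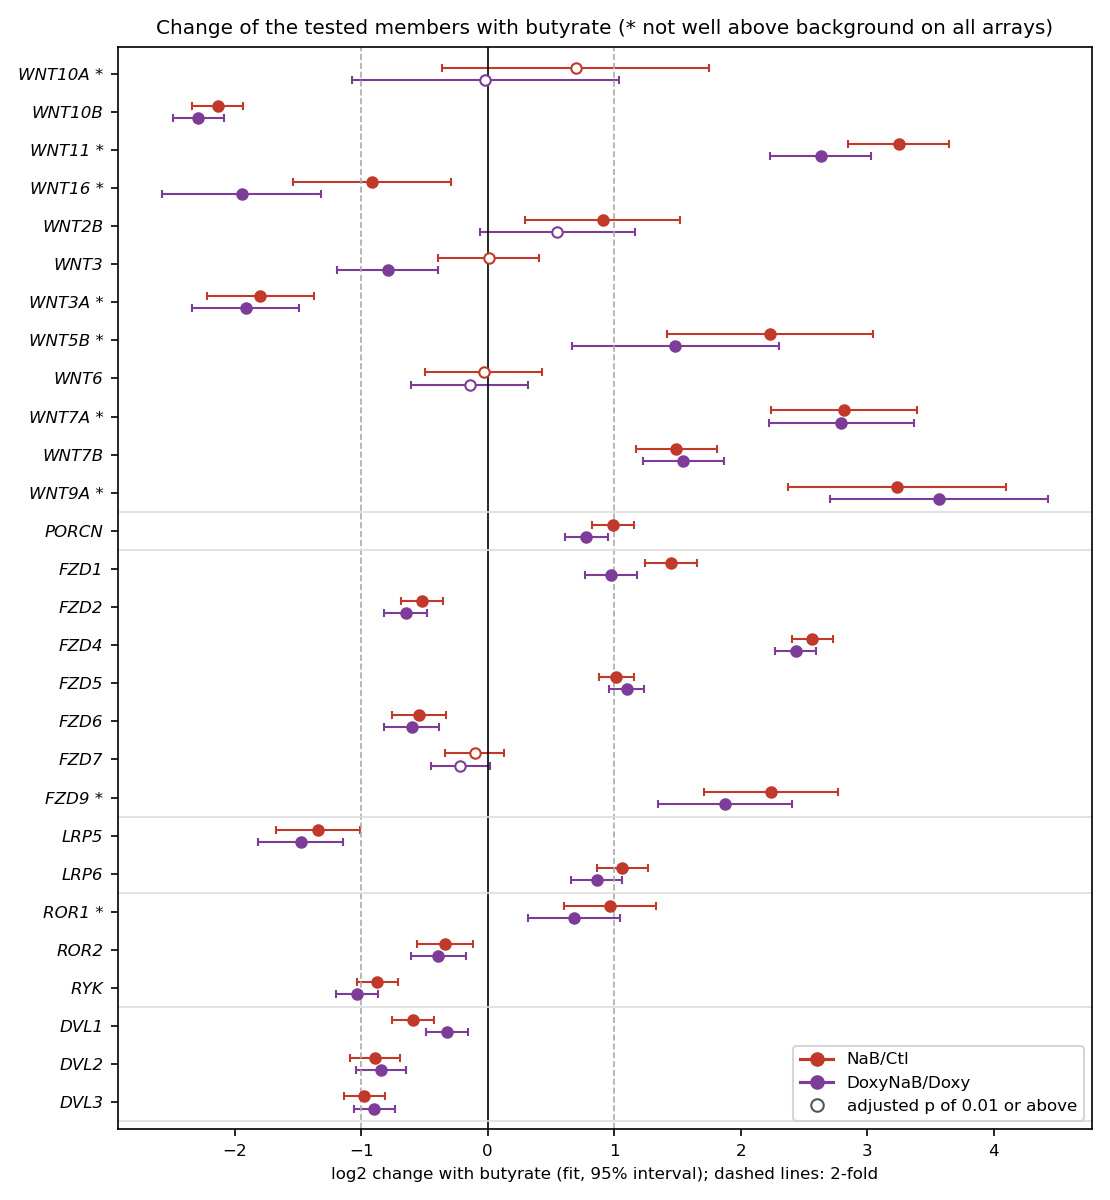
Change of each of the 28 tested genes with butyrate (x axis, log2, point and 95% interval of the fit), without doxycycline (NaB/Ctl, red) and with it (DoxyNaB/Doxy, purple), in order of class; filled points passed an adjusted p of 0.01, dashed lines mark 2-fold, and an asterisk marks genes not well above background on all arrays. Ligands span the widest range, from -2.13 for WNT10B to 3.25 for WNT11 in NaB/Ctl, and the 3 Dishevelled genes all lie below 0.

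Among the Wnt ligands, WNT10B and WNT3A fell and WNT11, WNT7A, WNT9A and WNT7B rose with butyrate. WNT5B passed as higher too, with the limits given below. Of the 5 ligands well above background on all arrays, 3 changed in NaB/Ctl (2 higher, 1 lower, 2 past 2-fold) and 3 in DoxyNaB/Doxy (1 higher, 2 lower), against the 69.7% and 69.1% of all such probes given above. WNT11, WNT7A, WNT9A and WNT5B were tested only because they passed the background test with butyrate, the condition in which they were high, so their values are given one by one and not counted. WNT3, WNT6 and WNT10A did not pass in NaB/Ctl. No ligand probe changed between Doxy and Ctl.

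WNT10B, a ligand that signals through beta-catenin, had levels on the Ctl arrays from -0.76 to -0.08 with a median of -0.64, and on the NaB arrays from -2.99 to -2.46 with a median of -2.67. With doxycycline they ran from -0.92 to -0.06 (median -0.71) without butyrate and from -3.43 to -2.64 (median -2.91) with it. All 12 butyrate arrays lay below all 12 others. The change was -2.13 (SE 0.09, adjusted p = 7.98e-13) in NaB/Ctl, a ratio of 0.228, and -2.29 (adjusted p = 2.96e-13) in DoxyNaB/Doxy.

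WNT3A, the ligand most used to activate beta-catenin signalling in culture, ran from -1.27 to -0.72 (median -1.03) in Ctl and from -3.44 to -2.33 (median -2.76) in NaB cells. In Doxy cells the range was -1.27 to -0.73 (median -0.92) and in DoxyNaB cells -3.98 to -2.28 (median -2.76), the lowest being an array of experiment 2 on which the probe was not well above background. Neither pair of groups overlapped. The probe fell by 1.80 (SE 0.20, adjusted p = 2.31e-07) and by 1.91 (adjusted p = 1.05e-07). The second WNT3A probe, dimmer, with medians of -3.37 in Ctl and -2.87 in NaB cells, gave 0.30 (adjusted p = 0.393) and -0.03 (adjusted p = 0.931). The probes of WNT3A therefore disagree, and the fall rests on 1 of them.

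WNT16 and WNT3 fell with butyrate when doxycycline was present, and WNT16 also without it. WNT16 ran from -0.80 to 0.06 (median -0.12) in Ctl, from -1.36 to -0.90 (median -1.15) in NaB, from -1.09 to -0.04 (median -0.12) in Doxy and from -4.19 to -1.62 (median -1.92) in DoxyNaB cells. Butyrate lowered it without overlap in both comparisons, by 0.92 (SE 0.30, adjusted p = 0.00985) and by 1.95 (SE 0.30, adjusted p = 1.11e-05). The first of these calls was lost without experiment 3, 4, 5 or 6 (adjusted p from 0.0317 to 0.0438). The lowest DoxyNaB level, -4.19, was on the array of experiment 2, where the probe was not well above background. Without the 2 arrays of highest negative controls, among them that one, the second change was -1.55 (adjusted p = 1.2e-07). With the study's paired t-test, Benjamini-Hochberg adjusted, the second call was lost (adjusted p = 0.0106). WNT3, which Paneth cells supply to crypt stem cells, ran from -2.44 to -1.49 in Ctl and from -2.86 to -1.45 in NaB cells, and its change was 0.01 (adjusted p = 0.968). In DoxyNaB cells it ran from -3.48 to -1.83 (median -3.33), against -2.33 to -1.96 (median -2.13) in Doxy cells, with 5 of 6 experiments lower. That fall of 0.79 (adjusted p = 0.00108) was lost without experiment 5 (adjusted p = 0.0108), was -0.11 (adjusted p = 0.662) with normexp, an alternative correction that models the background, and was -0.41 (adjusted p = 0.232) in experiments 2 to 4 alone. The interaction was 1.03 (adjusted p = 0.31) for WNT16 and 0.80 (adjusted p = 0.174) for WNT3, so a difference between the comparisons was not shown for either.

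WNT11, known mainly for signalling without beta-catenin and for roles in tissue movements, rose without overlap. Its levels ran from -4.89 to -3.68 (median -4.26) in Ctl and from -1.10 to -0.85 (median -1.0) in NaB cells. In Doxy cells they ran from -4.74 to -3.67 (median -4.47) and in DoxyNaB cells from -2.12 to -0.92 (median -1.86). The NaB arrays lay within a narrow band far above every array without butyrate, and the probe passed the background test on 5 of 6 Ctl and 5 of 6 Doxy arrays. It rose by 3.25 (SE 0.19, adjusted p = 3e-11) and by 2.63 (adjusted p = 5.41e-10), with the Ctl and Doxy arrays of experiment 5 below the background test. In experiment 1 and experiments 2 to 4, where all arrays passed it, the first change was 2.69 and 3.35. With normexp the changes were 1.65 (adjusted p = 2.56e-05) and 1.43 (adjusted p = 0.000113).

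WNT7A and WNT9A rose from levels near the background. WNT7A ran from -7.03 to -3.48 (median -4.95) in Ctl and from -3.62 to -1.29 (median -2.09) in NaB cells, and WNT9A from -7.46 to -3.68 (median -5.36) and from -3.85 to -1.30 (median -2.06). The Ctl and NaB ranges of both overlapped slightly across experiments, yet each was higher in NaB cells in 6 of 6 experiments. Both were well above background on only 3 of 6 Ctl and 3 of 6 Doxy arrays, those of experiments 2 to 4. The fitted change was 2.82 (SE 0.27, adjusted p = 3.25e-08) for WNT7A and 3.23 (SE 0.41, adjusted p = 1.05e-06) for WNT9A. Since these use Ctl arrays not above background, no fold is given, and in experiments 2 to 4, measured in both groups, the changes were 2.20 and 2.61. With doxycycline, where the groups did not overlap, the fitted changes were 2.80 (adjusted p = 3.72e-08) and 3.57 (adjusted p = 3.06e-07), and 2.57 and 2.79 in experiments 2 to 4. Without the 5 arrays of high negative controls the changes in NaB/Ctl were 3.19 for WNT7A and 3.79 for WNT9A. The NaB arrays left were those of experiments 1, 5 and 6, whose Ctl arrays were not above background for either probe. The NaB arrays of experiments 2 to 4 were in turn those of high negative controls, so in NaB/Ctl neither set of experiments is free of both limits. With doxycycline, experiment 3 had both arrays above background for both probes, and neither had high negative controls. There WNT7A was -4.51 in Doxy and -2.10 in DoxyNaB cells, and WNT9A -4.41 and -1.51, from 1 array each. With normexp WNT7A gave 0.76 (adjusted p = 0.0464) in NaB/Ctl, and WNT9A 0.99 (adjusted p = 0.00976).

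WNT7B, a ligand expressed in many epithelia, was well above background throughout. It ran from -3.32 to -1.70 (median -2.68) in Ctl, from -2.30 to -0.40 (median -1.01) in NaB, from -2.88 to -1.58 (median -2.39) in Doxy and from -1.53 to -0.06 (median -0.97) in DoxyNaB cells. Ctl and NaB overlapped across experiments, but within each of the 6 experiments the NaB array was higher. The rise was 1.49 (SE 0.15, adjusted p = 6.08e-08) and 1.55 (adjusted p = 3.85e-08).

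WNT5B and WNT2B varied more with the array. WNT5B, well above background on 3 of 6 Ctl, 4 of 6 Doxy and 5 of 6 DoxyNaB arrays, ran from -6.27 to -3.98 in Ctl and from -4.63 to -1.28 in NaB cells, with the 3 highest NaB levels on the 3 NaB arrays of high negative controls. Its fitted change was 2.23 (SE 0.39, adjusted p = 4.63e-05), against Ctl arrays of which some were not above background, 1.64 (adjusted p = 0.000245) without the 5 arrays of high negative controls, and 0.67 (adjusted p = 0.169) with normexp. Without the 5 arrays, the NaB arrays left were those of experiments 1, 5 and 6, whose Ctl arrays were not above background for WNT5B. In DoxyNaB/Doxy the WNT5B change was 1.48 (adjusted p = 0.00218), a call lost without experiment 2 (1.07, adjusted p = 0.0184) or 5 (1.37, adjusted p = 0.0145). In experiments 1 and 3 both arrays were above background for WNT5B without high negative controls. Its levels there were -4.62 and -4.46 in Doxy and -4.29 and -4.15 in DoxyNaB cells. In experiment 2, with the DoxyNaB array of highest negative controls, they were -4.42 and -0.86. WNT2B ran from -4.78 to -1.38 in Ctl and from -3.97 to -0.41 in NaB cells. Its rise of 0.91 (adjusted p = 0.00892) was lost without experiment 3, 4, 5 or 6 (adjusted p from 0.0148 to 0.0389) and was 0.48 (adjusted p = 0.167) without the 5 arrays, and in DoxyNaB/Doxy it gave 0.55 (adjusted p = 0.0957). The part of the array background in these changes was not tested further.

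WNT6 and WNT10A did not pass in any comparison. WNT6 had medians of -1.60 and -1.61 in Ctl and NaB cells and a change of -0.03 (interval -0.49 to 0.43). WNT10A spread over -4.68 to -0.79 in NaB cells alone, so that its change of 0.70 had an interval of -0.36 to 1.75.

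PORCN, which attaches the lipid that Wnt ligands need for secretion and receptor binding, rose with butyrate. Its levels were -1.23 to -0.62 (median -0.74) in Ctl, 0.04 to 0.26 (median 0.22) in NaB, -0.83 to -0.54 (median -0.67) in Doxy and -0.03 to 0.37 (median 0.07) in DoxyNaB cells. Every butyrate array was above every array without it. The change was 0.99 (SE 0.08, adjusted p = 2.46e-09) and 0.78 (adjusted p = 6.2e-08). When arrays were scaled to their median, it was 0.24 (adjusted p = 0.29) and 0.22 (adjusted p = 0.337).

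**Figure D4:**
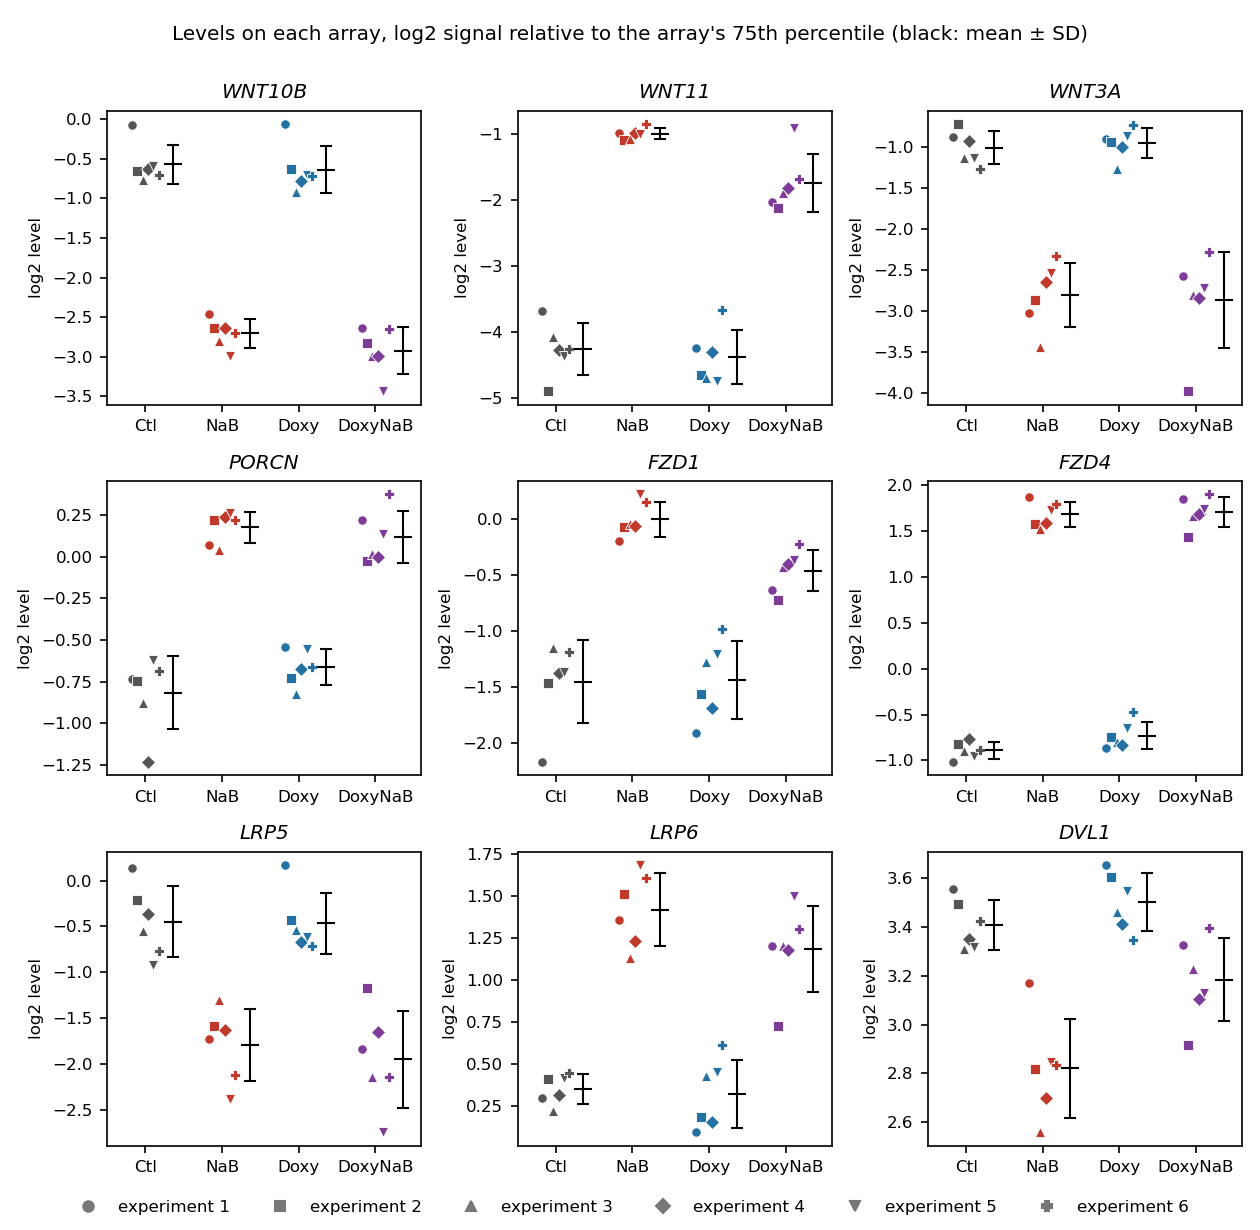
Log2 level on each of the 24 arrays (y axis) by treatment (x axis) for 9 members, with a symbol per experiment and the mean ± SD of each group in black. WNT11 and FZD4 are high and WNT10B, WNT3A and LRP5 low on all butyrate arrays, and FZD1 is lower on the DoxyNaB than on the NaB arrays.

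Of the Frizzled receptors, FZD4, FZD9, FZD1 and FZD5 rose with butyrate, FZD2 and FZD6 fell, and FZD7 did not pass. Of the 6 well above background on all arrays, which leaves out FZD9, 5 changed in NaB/Ctl (3 higher, 2 lower) and the 3 rises passed 2-fold. Of all such probes 69.7% changed (37.7% higher, 32.0% lower) and 26.5% passed 2-fold, so the count is not read as a feature of the receptors. FZD4, a receptor that besides Wnt ligands binds norrin in retinal vessels, ran from -1.01 to -0.77 (median -0.89) in Ctl and from 1.52 to 1.87 (median 1.66) in NaB cells. In Doxy cells the range was -0.87 to -0.48 (median -0.77) and in DoxyNaB cells 1.43 to 1.89 (median 1.71). The spread within each group was small beside the distance between them. FZD4 rose by 2.57 (SE 0.08, adjusted p = 8.1e-15), or 5.93-fold, and with doxycycline by 2.44 (adjusted p = 1.4e-14), or 5.41-fold. It kept its direction and its call under all 19 other settings in both comparisons.

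FZD1 ran from -2.17 to -1.15 (median -1.37) in Ctl, from -0.20 to 0.22 (median -0.06) in NaB, from -1.91 to -0.99 (median -1.42) in Doxy and from -0.72 to -0.23 (median -0.42) in DoxyNaB cells. The 4 groups thus stood on 3 steps, with the lowest NaB array just above the highest DoxyNaB array. It rose by 1.45 (SE 0.10, adjusted p = 2.52e-10) and by 0.98 (SE 0.10, adjusted p = 5.9e-08). FZD5, the receptor required for Paneth cell maturation, ran from -1.18 to -0.62 (median -0.77) in Ctl and from -0.27 to 0.39 (median 0.27) in NaB cells, again with no overlap. It rose by 1.02 (SE 0.07, adjusted p = 1.25e-10) and by 1.10 (adjusted p = 4.22e-11). Scaled to the array median, FZD5 gave 0.27 (adjusted p = 0.168) in NaB/Ctl, and FZD1 0.42 (adjusted p = 0.0998) in DoxyNaB/Doxy.

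FZD9, a receptor best known from brain, passed the background test on 5 of 6 Ctl and 5 of 6 Doxy arrays. It ran from -4.81 to -2.12 (median -3.65) in Ctl and from -2.47 to -0.21 (median -1.34) in NaB cells, overlapping across experiments but higher in NaB cells in 6 of 6. FZD9 was tested only because it passed the background test with butyrate, where it was high. The fitted change was 2.24 (SE 0.25, adjusted p = 2.42e-07), and in experiment 1 and experiments 2 to 4, where all Ctl and NaB arrays passed the test, it was 2.00 and 2.30. With doxycycline it was 1.88 (adjusted p = 2.36e-06). With normexp it was 1.05 (adjusted p = 0.0119) in NaB/Ctl. The NaB arrays of experiments 2 to 4 were those of high negative controls, and in experiment 1 slide and butyrate cannot be told apart. In experiment 3 with doxycycline, both arrays were above background for FZD9 without high negative controls. Its level there was -3.03 in Doxy and -2.22 in DoxyNaB cells.

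The receptors that fell did so by less. FZD2 ran from -0.02 to 0.52 (median 0.10) in Ctl and from -0.58 to -0.13 (median -0.35) in NaB cells, with no overlap. On the Doxy array of experiment 4 its spot carried an outlier flag and was left out of the fit, so Doxy has 5 values, from -0.18 to 0.43 (median -0.16), against -0.95 to -0.46 (median -0.69) in DoxyNaB cells. FZD2 fell by 0.52 (SE 0.08, adjusted p = 1.24e-05) and by 0.65 (adjusted p = 1.08e-06), lower in 6 of 6 and 5 of 5 experiments. FZD6, a receptor that takes part in planar cell polarity, ran from -0.87 to 0.11 (median -0.49) in Ctl and from -1.25 to -0.67 (median -0.99) in NaB cells. It fell by 0.54 (adjusted p = 0.000108) and by 0.60 (adjusted p = 3.53e-05), lower in 6 of 6 experiments each time although the groups overlapped. FZD7, a main Frizzled of intestinal stem cells, had medians of -0.22, -0.20, -0.22 and -0.37 in Ctl, NaB, Doxy and DoxyNaB cells, and its changes of -0.10 (interval -0.33 to 0.13) and -0.22 (interval -0.45 to 0.01) did not pass.

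The co-receptors moved in opposite directions. LRP5 ran from -0.92 to 0.14 (median -0.46) in Ctl, from -2.38 to -1.30 (median -1.67) in NaB, from -0.71 to 0.17 (median -0.58) in Doxy and from -2.74 to -1.18 (median -1.99) in DoxyNaB cells. LRP6 ran from 0.22 to 0.45 (median 0.36) in Ctl, from 1.13 to 1.68 (median 1.43) in NaB, from 0.10 to 0.61 (median 0.31) in Doxy and from 0.72 to 1.50 (median 1.20) in DoxyNaB cells. Each separated the butyrate arrays from the others without overlap, LRP5 downward and LRP6 upward. LRP5 fell by 1.34 (SE 0.16, adjusted p = 4.51e-07) and by 1.48 (adjusted p = 1.29e-07). LRP6 rose by 1.07 (SE 0.10, adjusted p = 1.14e-08) and by 0.86 (adjusted p = 1.99e-07). Under scaling to the array median LRP6 gave 0.32 (adjusted p = 0.242) and 0.30 (adjusted p = 0.269), while LRP5 kept its call under all 19 other settings in both comparisons.

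Since DN-Tcf4 acts at Tcf sites and butyrate is a histone deacetylase inhibitor, the 250 bases before the start of member genes were searched on both strands, in the RefSeq promoters of GRCh38.p14, for the Tcf motif CTTTGAT and for the GC box GGGCGG, which do not overlap each other. Promoters were found for 32 of the 42 genes (36 promoters). The Tcf motif was in 0 of the 36 and in 2.26% of all 35116 promoters. With so low a share, 0 in 36 is not read as a feature of the members. The GC box was in 29 of the 36 (80.6%) and in 42.6% of all. A match is a run of letters and not a measured binding site, and the absence of one says nothing of Tcf binding elsewhere. The promoters of 3 genes are shown with GC boxes on either strand in capitals: FZD4 (chr11:86955396-86955645, minus strand), which rose most among the receptors without dim arrays, FZD1 (chr7:91264183-91264432, plus strand), which was lower with doxycycline when butyrate was present, and LRP5 (chr11:68312341-68312590, plus strand), which fell. They hold 6, 1 and 3 matches.
FZD4: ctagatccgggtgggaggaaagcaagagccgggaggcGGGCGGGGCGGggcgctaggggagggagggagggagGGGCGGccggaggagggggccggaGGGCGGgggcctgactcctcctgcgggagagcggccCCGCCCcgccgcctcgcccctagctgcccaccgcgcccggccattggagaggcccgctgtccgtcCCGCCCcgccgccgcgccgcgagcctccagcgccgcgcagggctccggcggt
FZD1: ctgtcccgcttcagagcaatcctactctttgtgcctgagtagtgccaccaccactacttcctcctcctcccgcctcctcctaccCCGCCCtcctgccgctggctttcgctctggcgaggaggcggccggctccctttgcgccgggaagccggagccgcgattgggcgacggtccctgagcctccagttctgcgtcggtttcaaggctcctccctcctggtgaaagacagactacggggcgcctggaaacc
LRP5: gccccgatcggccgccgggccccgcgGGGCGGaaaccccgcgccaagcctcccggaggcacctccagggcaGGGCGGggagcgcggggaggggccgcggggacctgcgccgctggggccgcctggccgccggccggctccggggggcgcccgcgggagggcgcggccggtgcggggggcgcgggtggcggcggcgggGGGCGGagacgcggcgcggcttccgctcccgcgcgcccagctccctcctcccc
The bases G and C made up 80.8% of the FZD4, 65.2% of the FZD1 and 87.2% of the LRP5 promoter. The part of this base composition in the GC box matches was not tested, nor was a link of GC boxes with the direction of change.

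The alternative receptors were mixed. ROR1, a receptor tyrosine kinase-like protein of embryonic tissues and many tumours, ran from -3.97 to -3.09 (median -3.38) in Ctl and from -2.87 to -2.13 (median -2.37) in NaB cells. Those groups did not overlap, and its other probes rose as well, by 0.82 (adjusted p = 1.95e-05) and 1.44 (adjusted p = 1.17e-06), beside 0.97 (SE 0.17, adjusted p = 6.6e-05). In DoxyNaB/Doxy it rose by 0.68 (adjusted p = 0.00177), a call lost without experiment 4 (0.61, adjusted p = 0.0138). The direction depended on the scaling: after quantile normalization ROR1 gave -0.20 and -0.06, neither past the threshold, and 1 of the other probes gave -0.38 and -0.08.

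ROR2, the related receptor for WNT5A, had medians of -1.02 in Ctl and -1.32 in NaB cells with overlapping groups. It fell by 0.34 (adjusted p = 0.00749) and by 0.39 (adjusted p = 0.00278), and its second probe, with 0.15 (adjusted p = 0.604) and -0.25 (adjusted p = 0.383), did not pass. The first call was lost without experiment 1, 4, 5 or 6 (adjusted p from 0.0246 to 0.037). The second was lost without experiment 5 (adjusted p = 0.0149) and was -0.22 (adjusted p = 0.164) with normexp. RYK, an atypical kinase with a Wnt-binding domain, ran from 1.44 to 1.87 (median 1.76) in Ctl, from 0.69 to 1.02 (median 0.88) in NaB, from 1.54 to 1.96 (median 1.76) in Doxy and from 0.47 to 0.97 (median 0.67) in DoxyNaB cells. All butyrate arrays lay below all others. It fell by 0.87 (SE 0.08, adjusted p = 1.09e-08) and by 1.03 (adjusted p = 1.07e-09).

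All 3 Dishevelled genes, which encode the cytoplasmic scaffolds that pass the signal on from Frizzled, fell in both butyrate comparisons. Both DVL1 probes did so, and none of these falls reached 2-fold. Of all probes well above background on all arrays, 32.0% fell in NaB/Ctl and 33.2% in DoxyNaB/Doxy, and no feature of the class is read from the count. All Dishevelled values stayed below 0 under each of the 4 scalings tried, although DVL1 in DoxyNaB/Doxy did not pass after quantile normalization (-0.16, adjusted p = 0.0252). DVL3 ran from -1.0 to -0.06 (median -0.79) in Ctl, from -1.86 to -1.24 (median -1.76) in NaB, from -0.93 to -0.24 (median -0.79) in Doxy and from -1.91 to -1.24 (median -1.71) in DoxyNaB cells. DVL2 ran from -0.11 to 0.45 (median 0.12) in Ctl and from -1.08 to -0.45 (median -0.70) in NaB cells. Neither gene overlapped between NaB and Ctl. DVL3 fell by 0.97 (SE 0.08, adjusted p = 1.87e-09) and by 0.90 (adjusted p = 5.85e-09), and DVL2 by 0.89 (SE 0.09, adjusted p = 1e-07) and by 0.84 (adjusted p = 2.18e-07).

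DVL1 had a smaller change in DoxyNaB/Doxy than in NaB/Ctl, though the difference did not pass. Its levels ran from 3.31 to 3.56 (median 3.39) in Ctl, from 2.56 to 3.17 (median 2.83) in NaB, from 3.35 to 3.66 (median 3.50) in Doxy and from 2.92 to 3.40 (median 3.18) in DoxyNaB cells. NaB and Ctl did not overlap, while DoxyNaB and Doxy did. The fall was 0.59 (SE 0.08, adjusted p = 2.22e-06) in NaB/Ctl and 0.32 (SE 0.08, adjusted p = 0.00136) in DoxyNaB/Doxy, lower in 6 of 6 and in 5 of 6 experiments. The call of this probe in DoxyNaB/Doxy was lost under 6 of 19 other settings, with an adjusted p of up to 0.271. Among them was the setting without the 5 arrays of high negative controls. The second DVL1 probe gave -0.61 (adjusted p = 3.47e-06) and -0.29 (adjusted p = 0.00508). Its second call was lost under 11 of 19 other settings, among them without experiment 2, 4 or 5 (adjusted p from 0.0228 to 0.0322), and it was -0.17 (adjusted p = 0.109) without the 5 arrays of high negative controls. The interaction was -0.27 (adjusted p = 0.322) for the first probe and -0.32 (adjusted p = 0.243) for the second, so this difference did not pass.

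Doxycycline alone, with which the study saw minimal DN-Tcf4, moved the members little. In Doxy/Ctl, 0 of the 20 probes well above background on all arrays changed by limma, against 0.550% of all such probes, and 0 of the 33 tested probes did, against 0.501% of 18980. FZD2 had the lowest p by limma, with a change of -0.21 (adjusted p = 0.269, Doxy without experiment 4), and the methods' t-test called 0. The median size of the changes was 0.07 for the 20, against 0.09 over all such probes. The 95% intervals of some members lay well inside a 2-fold change: that of FZD5 ran from -0.18 to 0.10, that of LRP6 from -0.23 to 0.17 and that of DVL3 from -0.18 to 0.14.

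With butyrate present, doxycycline changed 2 genes. In DoxyNaB/NaB, 3 of the 20 probes changed, 1 lower (FZD1) and 2 higher (both probes of DVL1), against 2.86% of all such probes (0.696% higher and 2.17% lower) and 2.48% of all tested, and none passed 2-fold. These comparisons share their arrays with the butyrate comparisons, and their values are therefore set side by side only. FZD1 fell by 0.46 (SE 0.10, adjusted p = 0.00883), a ratio of 0.727, with 6 of 6 experiments lower and no overlap between NaB and DoxyNaB arrays, which held for 1.80% of all such probes. In Doxy/Ctl its change was 0.01 (adjusted p = 0.978). DVL1 rose by 0.36 (SE 0.08, adjusted p = 0.00962) and by 0.39 (SE 0.08, adjusted p = 0.00945) for its second probe, higher in 6 of 6 experiments, with overlapping groups. All 3 calls lay close to the threshold. FZD1 kept its call without experiment 1 (adjusted p = 0.00584) and lost it without any other one (adjusted p from 0.0244 to 0.0701), and DVL1 kept it without experiment 2 (adjusted p = 0.00463) and lost it without any other one (adjusted p from 0.0189 to 0.0729). The second DVL1 probe lost its call without any 1 of the experiments (adjusted p from 0.0116 to 0.0563).

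Other members had values below 0 in DoxyNaB/NaB that did not pass. WNT3 had -0.84 (adjusted p = 0.0131) and FZD2 -0.34 (adjusted p = 0.0174), both lower in 6 of 6 experiments. WNT11 had -0.74 (adjusted p = 0.0291), lower in 5 of 6, and WNT16 -1.11 (adjusted p = 0.0391), lower in 6 of 6 with no overlap. The lowest WNT16 level, -4.19, was on the DoxyNaB array of experiment 2. WNT16 had -0.79 (adjusted p = 0.00852) without the 2 arrays of highest negative controls, among them that one, and -0.78 (adjusted p = 0.074) without the 5. For WNT3 the result depended on the setting: it had -0.84 (adjusted p = 0.00529) without the 5, -0.17 (adjusted p = 0.671) with normexp and an adjusted p of 0.205 with no replicate block, and the adjusted p was 0.0077 without experiment 2 and 0.0244 to 0.0846 without any other one. The interaction of butyrate and doxycycline is given as the change in NaB/Ctl minus that in DoxyNaB/Doxy. It was past the threshold for 0 of the 33 tested probes by limma, against 1.24% of 18980. The lowest adjusted p was that of FZD1, with an interaction of 0.47 (SE 0.14, adjusted p = 0.1).

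**Figure D5:**
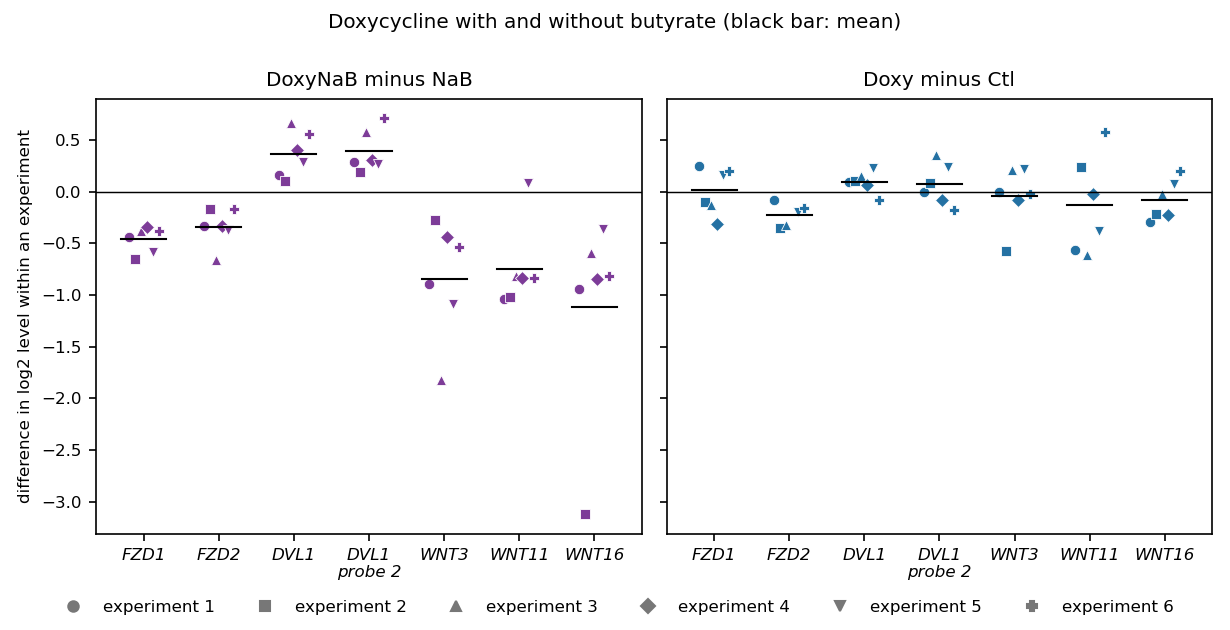
Difference in log2 level within each experiment (y axis, one symbol per experiment, bar at the mean) with doxycycline in the presence (left) and absence (right) of butyrate, for 6 members and the second DVL1 probe. FZD1 and FZD2 lie below 0 and both DVL1 probes above 0 in all 6 experiments on the left, and the points on the right scatter around 0 apart from FZD2.

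Neighbouring genes of the pathway were counted from 5 lists of 45 genes, all with a probe and 28 tested. In NaB/Ctl 12 were higher and 8 lower, in DoxyNaB/Doxy 12 and 11, in Doxy/Ctl 0 changed, and in DoxyNaB/NaB 2 were lower. The 20 of 28 changed in NaB/Ctl stand beside 68.2% of all tested probes, the 23 in DoxyNaB/Doxy beside 67.0%, and those of the doxycycline comparisons beside 0.501% and 2.48%. The counts of single lists below are small and are read against the same shares. Among inhibitors and modifiers of ligands, 2 of 5 tested genes rose and 2 fell in NaB/Ctl. DKK1, a secreted antagonist of LRP5 and LRP6, rose by 1.74 (adjusted p = 1.62e-10). DKK4 of the same family had a fitted change of 3.63 (adjusted p = 3.77e-05), with an SD of 1.90 over experiments. Its probe was well above background on only 19 arrays, with a mean level of -4.65 in Ctl and of -4.65 in Doxy cells. The fit of DKK4 thus uses arrays not above background, so no fold is given and its count as a rise carries that limit. WLS, the carrier that brings Wnt ligands to the cell surface, fell by 1.22 (adjusted p = 4.83e-08), and TRABD2A, a protease that cleaves Wnt ligands, fell by 1.50 (adjusted p = 8e-07). With doxycycline DKK1 did not pass and WLS, TRABD2A and DKK4 did, with -1.46, -1.64 and 2.76. The same limit holds for DKK4 there, where 5 experiments could be compared.

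The R-spondin list, of genes that set how much Frizzled stays at the surface, had 1 of 5 tested genes higher and 2 lower in NaB/Ctl, and 1 higher and 3 lower in DoxyNaB/Doxy. LGR4, an R-spondin receptor, rose by 2.21 (adjusted p = 1.21e-08) and by 2.01 (adjusted p = 4.7e-08). RNF43, a ubiquitin ligase that removes Frizzled receptors, fell by 2.08 (adjusted p = 7.7e-12) and by 3.04 (adjusted p = 5.21e-14), and its relative ZNRF3 had -0.41 (adjusted p = 0.0123) and fell by 1.04 (adjusted p = 1.82e-06) in the second comparison. The R-spondin RSPO4 fell by 1.14 and 1.36. DKK1 and RNF43 were the 2 list genes lower in DoxyNaB/NaB, by 1.59 (adjusted p = 6.38e-08) and by 1.01 (adjusted p = 9.46e-06), and both passed the interaction.

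Among receptor partners, 3 of 7 tested genes rose and 0 fell in NaB/Ctl, where 40.0% of all tested probes rose and 28.2% fell: KREMEN1, a Dickkopf receptor, by 1.39, RECK by 1.61 and ADGRA2 by 1.03, of which RECK and ADGRA2 form the receptor complex for WNT7 ligands. In DoxyNaB/Doxy 4 were higher and 2 lower, with 1.46, 1.49 and 0.93 for these genes. Of the planar polarity genes 3 of 6 rose and 2 fell in each comparison, with only CELSR3 past 2-fold (1.28 and 1.49). Of the Dishevelled partners, 3 of 5 rose and 2 fell in each. NKD1, a Dishevelled antagonist, rose by 1.66 and 1.31, DIXDC1, a positive partner, by 0.93 and 1.12, and CXXC5, an inhibitor that binds Dishevelled, fell by 1.41 and 1.58.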

How the data were processed

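RNA of HCT-116 cells was made into cRNA, which was hybridised to 1-colour Agilent arrays. The deposited files hold the output of Feature Extraction 9.5.3.1, in which the authors' scanner software gives a background-corrected, not log-transformed intensity (gProcessedSignal) per spot. Each array was scaled here to the 75th percentile of that intensity over its non-control spots, outlier-flagged spots were left out, and spots of a probe were averaged on the log2 scale. Probes that passed the scanner's background test on every array of 1 or more groups were tested with limma 3.58.1 (R 4.3.3) on 24 arrays, with the 4 groups and the experiment as a block, and p-values were Benjamini-Hochberg adjusted over all 18980 tested probes. A change was called at an adjusted p under 0.01, and 2-fold changes were counted beside it. The number of arrays limits the precision. The study calls the 6 experiments biological replicates, and each holds 1 array per treatment. Arrays of the same experiment deviated together (r from 0.218 to 0.851 in 35 of 36 pairs, -0.217 for NaB and DoxyNaB of experiment 3). On simulated data 177 of 200 probes changed by 1.5 (log2) were recovered for NaB/Ctl among 18980 probes. Of 100 probes so changed, 88 were recovered for DoxyNaB/Doxy, 86 for DoxyNaB/NaB and 78 for the interaction. Far fewer probes changed in the simulation than in the data, and smaller changes were not simulated, so the power for those is not known.

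For a gene with several probes, the tested probe of highest mean level represents it, and the other probes are named where they disagree. All tested members are described in the text. Alternatives were another background correction, scaling, filter, test and threshold, the slide as a block, no block, the 2 scan batches alone, and leaving out each experiment or arrays of high negative controls, of which the setting without 5 arrays was added after seeing the data. Members and lists were chosen with earlier results of these data known. Exons and UTRs of the probes were not analysed here.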

Additional observations from a re-analysis of the deposited data

Results flagged for a closer look

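Within the groups, 17 of 112 sets of levels had 1 array that stood apart from the others by Dixon's test, where chance gives about 1 in 20, and 13 of the 17 arrays belonged to experiment 1. High in experiment 1 were WNT10B in Ctl (-0.077) and Doxy cells (-0.062), FZD2 (0.43, among 5 arrays) and LRP5 (0.17) in Doxy cells, ROR2 in Ctl cells (-0.30), and DVL3 in Ctl (-0.060), NaB (-1.24) and Doxy cells (-0.24). Low in experiment 1 were FZD1 (-2.17) and RYK (1.44) in Ctl cells, FZD5 in NaB cells (-0.27), and WNT16 (-1.09) and FZD6 (-0.85) in Doxy cells. The others were the DoxyNaB array of experiment 2, low for WNT16 (-4.19), WNT3A (-3.98) and ROR1 (-3.50), and that of experiment 5, high for WNT11 (-0.92).

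The response to butyrate differed with doxycycline for 2 genes near these members, by the interaction term of limma. DKK1, the LRP antagonist, had an interaction of 1.43 (adjusted p = 5.11e-05), with a change of 1.74 in NaB/Ctl and of 0.31 in DoxyNaB/Doxy. RNF43, the ligase that removes Frizzled, had an interaction of 0.96 (adjusted p = 0.00141).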

How the results depend on the processing

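Of 57 called changes of tested members, 27 kept their direction and call under all alternatives that could be run for them, and 4 values changed sign: after quantile normalization ROR1 gave -0.20 in NaB/Ctl and -0.056 in DoxyNaB/Doxy, and a further ROR1 probe -0.38 and -0.083. The cause was not tested. Of 33 tested probes, 27 changed in each butyrate comparison, and 24 to 27 and 23 to 27 when 1 experiment was left out. The counts were 17 each among probes well above background on all arrays, since fewer were tested, and 14 each with a 2-fold limit. With normexp they were 18 and 23, and with the methods' t-test after Benjamini-Hochberg adjustment 26 and 19. Without the replicate block, which pairs the arrays of an experiment, they were 24 and 23. The 3 calls in DoxyNaB/NaB became 0 with normexp, median scaling, no filter, no replicate block, only the groups compared, the methods' t-test, a 2-fold limit, experiments 2 to 4 alone or experiments 5 and 6 alone, 1 without the 5 arrays of high negative controls, 7 at an adjusted p under 0.05, and 0 to 2 without 1 experiment. Doxy/Ctl and the interaction had 0 calls throughout. Another scaling moved the median of all tested probes in NaB/Ctl from 0.17 to 0.07 (normexp), -0.09 (quantile) and -0.58 (median), and the share of calls that were higher from 58.7% to 51.2%, 46.8% and 21.7%. The members split into 15 higher and 12 lower at first, 12 and 15 with quantile and 9 and 15 with median scaling.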
